A study of Mus musculus with 4 samples.

Results

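The 9 genes described here encode the amyloid precursor protein and its relatives (App, Aplp1, Aplp2), enzymes that cut it (Adam10, Bace1, and Psen2 and Ncstn of the gamma-secretase complex), tau (Mapt) and the cellular prion protein (Prnp). They were chosen by symbol, all 9 were found among the 32285 genes of the deposited matrices, and their unique molecular identifiers (UMIs, each 1 counted transcript) were summed per library and per cell class. RNA of single nuclei was counted in the hippocampus, both hemispheres frozen, of wild-type (WT) mice and of littermates heterozygous for a cysteine at residue 87 of Cyfip2 (Cyfip2+/R87C knock-in, KI), a mouse model of West syndrome, an infantile epilepsy. Each genotype had 2 mice, each mouse gave 1 library, and all 4 libraries carry the same batch label. Mice of both sexes were used in the study. The mice were on a C57BL/6N background and were examined at postnatal week 28, and the change sits in the germline, so that every cell of a KI mouse carries it. For KI replicate 2 the protocol names R87C but the treatment label R88C; its genotype label, KI, decided its group. The comparisons ask where in the hippocampus the 9 genes were transcribed, and whether their levels differed between KI and WT.

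The amyloid precursor protein is a transmembrane protein that alpha-secretases such as Adam10 cut within the amyloid-beta stretch, or that Bace1 (beta-secretase) and then the gamma-secretase complex cut to release amyloid-beta. Aplp1 and Aplp2 are its paralogs and are cut by the same enzymes. Tau binds and stabilises microtubules, mainly in axons, and the prion protein is a glycosylphosphatidylinositol-anchored surface protein that binds copper and is best known for its misfolded form in prion disease.

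The libraries held between 12665 and 16055 barcodes and between 73009975 and 80913580 UMIs. After barcodes with under 500 genes, with at least 5% mitochondrial UMIs or called as doublets were removed, 52033 nuclei of 55640 barcodes were left. Each library shared between 142 and 178 of its barcodes with another library. Nuclei were clustered without the 9 genes and without 46 other genes of the pathway, and 14 classes with at least 20 nuclei in every library were named from markers. 21.8% of nuclei stayed unnamed. The 8 astrocyte markers summed to between 11242 and 15605 CPM (counts of a gene per 1000000 UMIs of that class in that library) in astrocytes and to between 91.4 and 146 CPM in CA1 pyramidal neurons. In 3 classes the markers of another class summed higher than their own. The CA3 markers summed to between 3139 and 3513 CPM in subicular or cortical excitatory neurons, against 1930 to 3083 CPM for that class's own, and to between 1822 and 2053 CPM in mossy cells, against 266 to 439 CPM. In mossy cells the CA1 markers (899 to 1198 CPM) and the OPC markers (564 to 756 CPM) also summed higher than their own. In committed oligodendrocyte precursors the OPC markers summed to between 9132 and 10182 CPM and their own to between 7419 and 8717 CPM, and the oligodendrocyte markers (6310 to 9108 CPM) exceeded their own in 3 of the 4 libraries. Markers of other classes were counted in every class, and none of the markers named next was at 0. In microglia the 7 markers of dentate gyrus (DG) granule neurons summed to between 823 and 1749 CPM, against between 1888 and 2603 CPM in the granule neurons themselves, and in oligodendrocytes to between 1436 and 2231 CPM. The part of such RNA in the levels below was not tested. Malat1, a nuclear RNA, took a larger share of UMIs in both KI libraries than in both WT libraries in all 15 sums, which over all nuclei was 8.90% and 8.71% (WT) against 13.7% and 12.2% (KI). CPM values below are raw, whereas the fold changes are from edgeR with TMM factors. Both compare shares of a class's UMIs and not RNA per nucleus. The median nucleus held 1434 UMIs in oligodendrocytes and 1315 in microglia, against 5714.5 in CA1 and 8020 in CA3. Per nucleus the order of classes can differ: App had 10064 UMIs in 6244 oligodendrocyte nuclei and 16964 UMIs in 3687 CA3 nuclei. With library totals in place of these factors the median log2 difference (KI minus WT) of all genes lay between -0.14 and -0.02 across comparisons, against -0.05 to 0.02 with them.

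On GRCm38 (GENCODE M21) the precursor genes lie on separate chromosomes. App spans chr16:84949685-85173766 on the minus strand, Aplp1 chr7:30434982-30445535 on the minus strand and Aplp2 chr9:31149557-31211815 on the minus strand. Adam10 spans chr9:70678997-70780229 and Bace1 chr9:45838580-45864399, both on the plus strand. Psen2 spans chr1:180227004-180263438 and Ncstn chr1:172066013-172082795, both on the minus strand. Mapt spans chr11:104231390-104332090 and Prnp chr2:131909928-131938429, both on the plus strand. None of the 9 overlaps another gene on its own strand. App, Bace1, Psen2, Ncstn and Mapt each overlap at least 1 annotated gene on the opposite strand (Gm10791, Gm49227 and Gm49226 for App, Gm16536 and Rnf214 for Bace1, Gm31728 for Psen2, Copa for Ncstn and Gm11659 for Mapt). Whether the counting used the strand is not given in the sources used here, so reads of these pairs may not be told apart.

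Oligodendrocytes stood out among the classes for the precursor genes and for tau. In the comparison of oligodendrocytes with the mean of the other 13 classes, 7 of the 9 genes were higher (edgeR, adjusted p below 0.05 after Benjamini-Hochberg adjustment over all genes) and 0 were lower, where 33.8% of all 13138 genes tested were higher and 17.7% were lower. The 2 that did not pass were Ncstn (adjusted p = 0.125, and 0.0244 without WT replicate 2) and Psen2. Excitatory neurons (DG, CA1 and CA3) went the other way against macroglia (astrocytes, oligodendrocytes and oligodendrocyte precursor cells, OPCs): 0 of the 9 genes were higher and 6 were lower, against 31.6% and 41.1% of all genes. Of these 6, Ncstn kept its call in only 4 of 9 alternatives, with a log2 difference between -0.63 and -0.12 and an adjusted p of up to 0.324. Mapt did not pass (-0.13, adjusted p = 0.184) and kept that result in 7 of 9 alternatives. Its log2 difference lay between -0.38 and 0.11, with an adjusted p down to 7.83e-05.

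**Figure D1:**
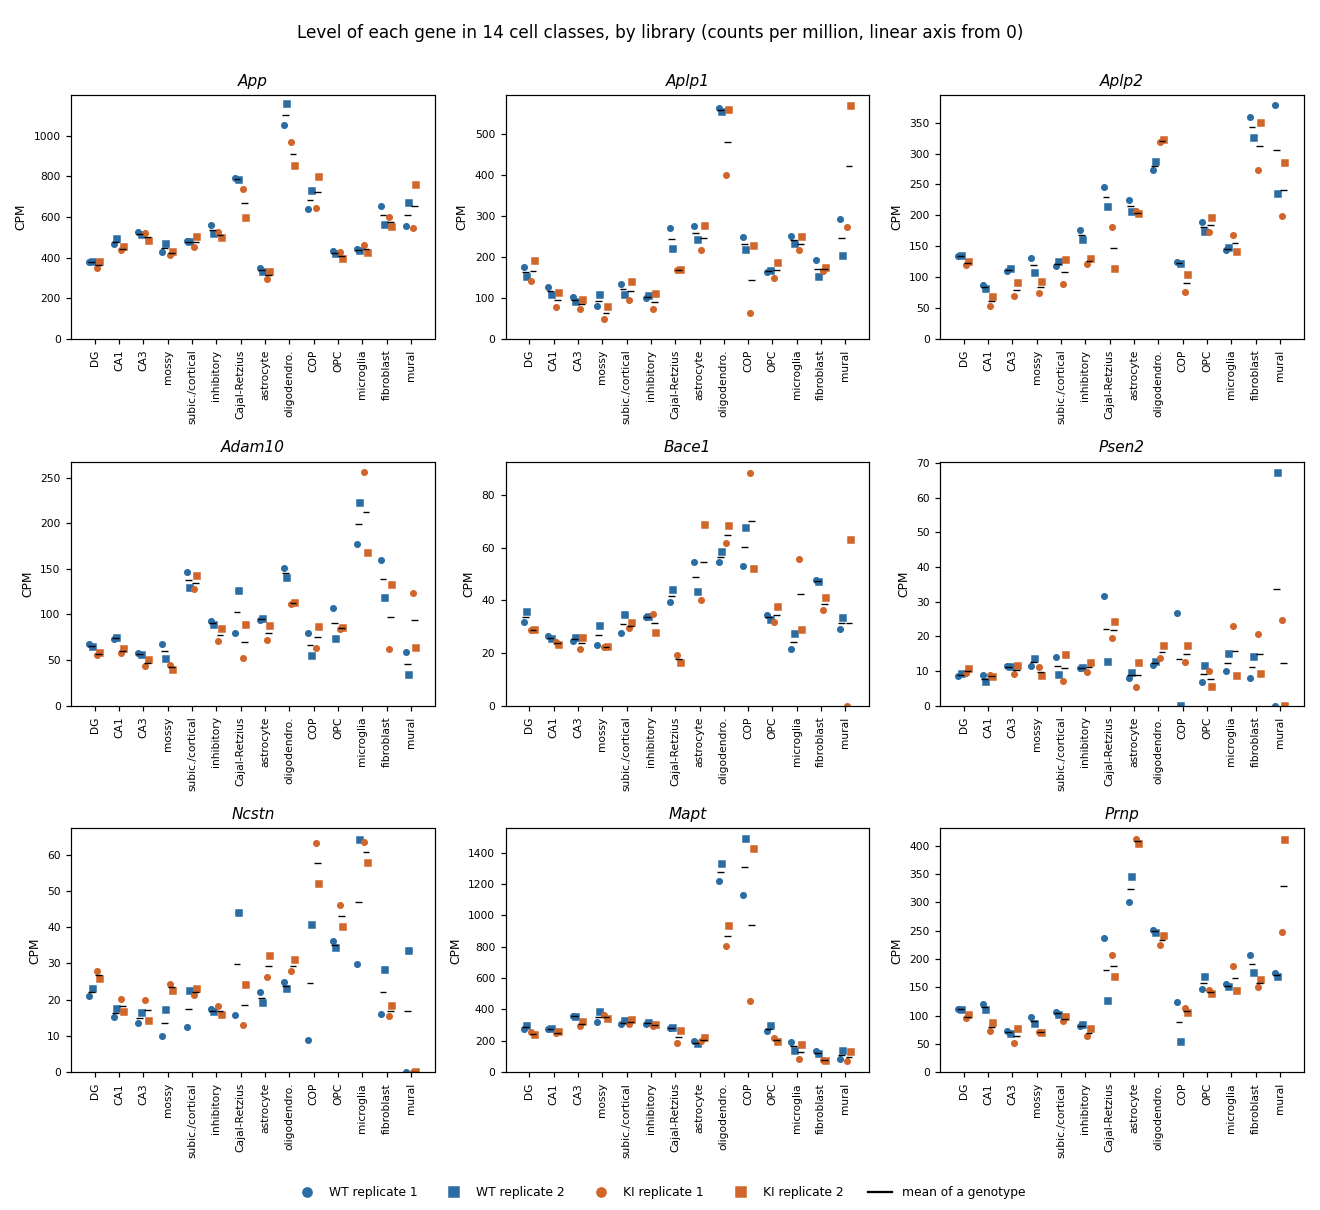
Level of each of the 9 genes (vertical axis, CPM, linear from 0) in the 14 cell classes (horizontal axis), with 1 point per library (WT blue, KI orange) and a bar at the mean of each genotype. Mapt lies higher in oligodendrocytes than in every other class but committed oligodendrocyte precursors (COP), of which KI replicate 1 stands at 455 CPM from 36 UMIs, App and Aplp1 are highest in oligodendrocytes, Adam10 in microglia and Prnp in astrocytes.

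App had its highest level in oligodendrocytes, with 1051 and 1157 CPM (WT) against 969 and 849 CPM (KI). All 4 values lay above every value of the next class, Cajal-Retzius cells (594 to 791 CPM). App was lowest in astrocytes, with 347 and 330 CPM (WT) against 296 and 329 CPM (KI) and next lowest in DG granule neurons (349 to 380 CPM), and neither class overlapped its neighbour in the order. Between these ends the classes formed a gradual series, and 10 of the 13 neighbouring pairs overlapped. The log2 difference was 1.03 ± 0.06 (SE, adjusted p = 8.18e-22) for oligodendrocytes and -0.73 ± 0.08 (adjusted p = 2.79e-12) for astrocytes, each against the other classes. Between excitatory neurons and macroglia the log2 difference of App was 0.03 ± 0.05 (adjusted p = 0.619). This value depended on the processing: it was -0.22 (adjusted p = 0.000344) with library totals, and 0.27 (adjusted p = 0.00232) without the low-count filter, 0.16 (0.00648) with doublets kept, 0.17 (0.0329) without WT replicate 2 and 0.14 (0.0471) without KI replicate 2. CA1 exceeded DG by 0.44 ± 0.09 (adjusted p = 6.77e-05).

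Aplp1 was also highest in oligodendrocytes, at 561 and 553 CPM (WT) against 398 and 558 CPM (KI). KI replicate 1 was the lowest of the 4, and all 4 lay above every value in each neuron class. Mossy cells were lowest, with 79.5 and 107 CPM (WT) against 48.7 and 78.4 CPM (KI). The mean level spanned 6.61-fold from the lowest to the highest class, against a median of 4.32-fold over 10692 genes. Aplp1 was higher in oligodendrocytes by 1.74 ± 0.07 (adjusted p = 4.52e-29) and in astrocytes by 0.61 ± 0.09 (adjusted p = 3.36e-08), and lower in excitatory neurons than in macroglia by a log2 difference of -1.02 ± 0.07 (adjusted p = 3.73e-20). Among neurons, DG granule neurons held more than CA1 (141 to 190 against 77.1 to 126 CPM), and the ranges of the 4 libraries did not overlap.

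Aplp2 differed from both in being highest in fibroblasts, where the WT libraries had 359 and 325 CPM and the KI libraries 274 and 350 CPM. Oligodendrocytes followed with 273 to 322 CPM, and the 2 ranges overlapped. CA1 pyramidal neurons were lowest, with 87.5 and 80.1 CPM (WT) against 52.8 and 68.5 CPM (KI). Aplp2 was higher in DG than in CA1 (log2 difference CA1 minus DG -0.72 ± 0.11, adjusted p = 2.36e-07), in CA3 than in CA1 (0.42 ± 0.11, adjusted p = 0.00279) and in inhibitory than in excitatory neurons (0.51 ± 0.09, adjusted p = 2.19e-06). In the comparison of CA1 with DG as a whole, 2 of the 9 genes were higher and 3 lower, against 19.9% and 17.6% of all genes, and in CA3 against CA1, 2 were higher and 2 lower, against 13% and 11.2%. In the first of these, scaling by library totals changed the split of all called genes from 2617 higher and 2312 lower to 1973 higher and 3412 lower, and Adam10 (0.25 ± 0.10, adjusted p = 0.0492) then no longer passed (adjusted p = 0.359). Adam10 also did not pass there without the low-count filter (0.358), with nuclei of at least 1000 genes (0.0726), with doublets kept (0.0538), or without WT replicate 1 (0.183), WT replicate 2 (0.273) or KI replicate 2 (0.191). Ncstn, lower in CA1 than in DG (-0.37, adjusted p = 0.0117), did not pass without KI replicate 2 (0.0751). In CA3 against CA1 the lower Adam10 (-0.36, adjusted p = 0.00784) did not pass with classes set per nucleus (0.760) or without WT replicate 2 (0.0786). Bace1 did not pass in CA1 against DG (-0.21, adjusted p = 0.132) and kept that result in 8 of 9 alternatives, with a lowest adjusted p of 0.0152. In the excitatory comparison above, the split of all called genes moved from 4156 higher and 5400 lower to 2957 higher and 7108 lower with library totals, 7278 higher and 4720 lower without the low-count filter, 4496 and 4355 with nuclei of at least 1000 genes, and 5213 and 4729 with doublets kept.

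Among the cutting enzymes, Adam10, the main alpha-secretase of neurons, was highest in microglia. Its values there were 177 and 222 CPM (WT) against 256 and 167 CPM (KI), from 356 UMIs in all, and they did not overlap those of the next class, subicular or cortical excitatory neurons (127 to 146 CPM). Genotypes overlapped in microglia. In CA3 pyramidal neurons Adam10 stood at 57.5 and 55.4 CPM (WT) against 43.9 and 49.5 CPM (KI). Microglia exceeded the other classes by 1.15 ± 0.10 (adjusted p = 3.44e-14) and oligodendrocytes by 0.62 ± 0.09 (adjusted p = 1.56e-08), whereas astrocytes did not differ detectably (0.01 ± 0.11, adjusted p = 0.987).

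Ncstn (nicastrin, the substrate-receiving subunit of gamma-secretase) shared the high level in microglia. It was listed there at 29.7 and 64.0 CPM (WT) against 63.5 and 57.7 CPM (KI), from 89 UMIs, and the log2 difference from the other classes was 1.12 ± 0.19 (adjusted p = 1.31e-06). WT replicate 1 held the low value, and the genotypes overlapped. OPCs stood at 34.3 to 46.2 CPM, above every oligodendrocyte value (22.9 to 30.8 CPM). In the microglia comparison 3 of the 9 genes were higher (Adam10, Ncstn and Aplp1) and 2 lower (App and Mapt), against 21.5% and 10.2% of all genes. The Aplp1 call (0.33, adjusted p = 0.00734) held in 4 of 9 alternatives, with a log2 difference between 0.11 and 0.53 and an adjusted p of up to 0.591. The split of all called genes there moved from 2827 higher and 1345 lower to 4066 higher and 829 lower with library totals. KI replicate 1 formed most of 1 of the microglial subclusters (4 and 5 WT nuclei, 237 nuclei of KI replicate 1 and 14 of KI replicate 2), and without that library the Adam10 and Ncstn differences still passed.

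Bace1, the beta-secretase, had its highest mean levels in committed oligodendrocyte precursors and oligodendrocytes. OPCs held less (31.8 to 37.4 CPM), and astrocytes (40.2 to 68.9 CPM) overlapped oligodendrocytes. In oligodendrocytes it stood at 54.6 and 58.4 CPM (WT) against 61.8 and 68.5 CPM (KI), and in committed oligodendrocyte precursors at 52.0 to 88.4 CPM from only 21 UMIs. The lowest mean was in CA3 (21.5 to 25.9 CPM). Bace1 was higher in oligodendrocytes by 0.86 ± 0.11 (adjusted p = 2.91e-10) and in astrocytes by 0.59 ± 0.13 (adjusted p = 0.000142), yet every neighbouring pair of classes overlapped, 13 of 13, so that the order between the ends is not resolved.

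Psen2 (presenilin 2, a catalytic subunit of gamma-secretase) was the most thinly counted of the 9, with between 639 and 771 UMIs per library over all nuclei. Its mean levels ran from 8.14 CPM in CA1 to 22.9 CPM in mural cells, the latter from 3 UMIs, and all 13 neighbouring pairs overlapped. The only class comparison it passed was CA3 against CA1, with 9.09 to 11.5 CPM against 6.75 to 8.77 CPM (0.42 ± 0.16, adjusted p = 0.0438). This call was lost with library totals (adjusted p = 0.0564), without the low-count filter (0.151), with nuclei of at least 1000 genes (0.0517), with classes set per nucleus (0.632), and without WT replicate 1 (adjusted p = 0.148), WT replicate 2 (0.278) or KI replicate 2 (0.173).

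Mapt showed the steepest pattern of the 9, with a ratio of 11.2 between the highest and the lowest class mean. It stood at 1218 and 1329 CPM in oligodendrocytes of WT and at 803 and 931 CPM in those of KI. In committed oligodendrocyte precursors it reached 1127 and 1484 CPM (WT) against 455 and 1420 CPM (KI). Oligodendrocytes of every library lay above every value of every neuron class, of which the highest was 387 CPM in mossy cells. Neuron classes ran from 188 to 387 CPM, with Cajal-Retzius cells lowest (188 to 285 CPM) and mossy cells highest (321 to 387 CPM). Between these, subicular or cortical excitatory neurons held 307 to 334 CPM, inhibitory neurons 296 to 314 CPM, CA3 293 to 360 CPM, DG 237 to 292 CPM and CA1 247 to 277 CPM. CA3 did not pass against CA1 (adjusted p = 0.0676), but did with doublets kept (0.0393) and without KI replicate 1 (0.0147). Oligodendrocytes exceeded the other classes by 2.08 ± 0.09 (adjusted p = 7.54e-28), a fold of 4.23. Microglia (-1.17 ± 0.15, adjusted p = 1.42e-09) and astrocytes (-0.55 ± 0.13, adjusted p = 0.000291) lay below the others. Inhibitory and excitatory neurons had an estimated difference of 0.00 ± 0.12 (adjusted p = 0.982). With classes set from each nucleus's own marker UMIs the microglial difference of Mapt turned to 0.23 (adjusted p = 0.0279). The microglia so set were mixed: 726 were microglia by cluster, 747 came from unnamed clusters and 156 from DG clusters.

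Prnp was highest in astrocytes. The WT libraries had 301 and 344 CPM and the KI libraries 413 and 402 CPM there, and both KI values lay above both WT values. Oligodendrocytes followed among well-counted classes with 224 to 252 CPM, and CA3 was lowest with 51.0 to 75.8 CPM. Astrocytes exceeded the other classes by 1.53 ± 0.09 (adjusted p = 1.52e-22), the largest of the 9 in that comparison, in which 4 genes were higher and 2 lower, against 30.2% and 14.8% of all genes. Excitatory neurons lay below macroglia by a log2 difference of -1.18 ± 0.07 (adjusted p = 9.54e-22). Inhibitory neurons (63.5 to 82.9 CPM) were lower than excitatory neurons by -0.31 ± 0.10 (adjusted p = 0.00581), a call that library totals removed (adjusted p = 0.0772). Ncstn was lower there by -0.26 ± 0.11 (adjusted p = 0.0451) and did not pass with library totals (0.256), or without WT replicate 2 (0.0801), KI replicate 1 (0.199) or KI replicate 2 (0.0798). In that comparison of inhibitory with excitatory neurons, 2 of the 9 were higher (Adam10 and Aplp2) and 3 lower (Aplp1, Ncstn and Prnp), against 26.6% and 22.4% of all genes. App (0.14) and Bace1 (0.18) did not pass, and each kept that result in 8 of 9 alternatives. Their log2 differences reached 0.24 and 0.29, and their lowest adjusted p were 0.00474 and 0.0105. The split of all called genes in it was 3499 higher and 2940 lower, and 4490 higher and 2317 lower with library totals.

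**Figure D2:**
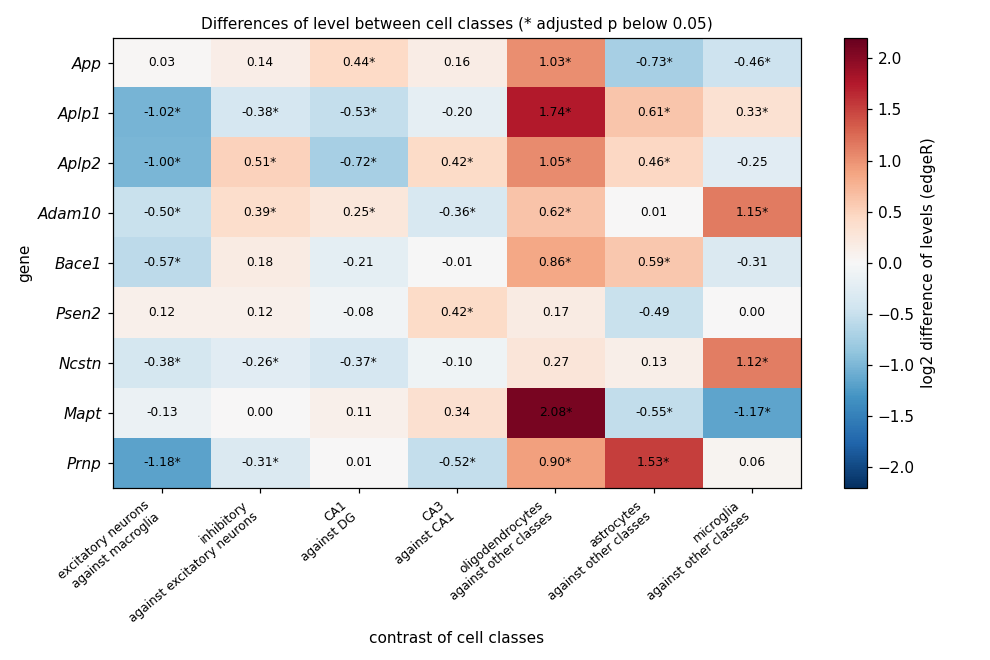
Log2 difference of level (edgeR, colour and printed value) of the 9 genes (rows) in 7 contrasts of cell classes (columns), with a star where the adjusted p is below 0.05. The largest value is the 2.08 of Mapt in oligodendrocytes, and the lowest the -1.18 of Prnp in excitatory neurons against macroglia.

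The genes whose class pattern was most like that of each member were found by the Pearson correlation of log2(mean CPM + 1) over the 14 classes, which share libraries and differ in depth, so the values are descriptions. Prnp was most like Arl6ip1 (r = 0.962), Gstm5 (0.958) and Mt3 (0.951), Aplp1 most like Mal (0.958), Mfsd14a (0.957) and Dstyk (0.952), and Aplp2 most like Ubxn2a (0.956), Smdt1 (0.942) and Rbl2 (0.935). For the enzymes, Ncstn was most like Ankrd49 (0.935), Polr3f (0.908) and Apbb1ip (0.902), Psen2 most like Erp44 (0.933), Gm49797 (0.910) and Hspbap1 (0.894), Bace1 most like Secisbp2l (0.928), Cdc37l1 (0.927) and Cmtm5 (0.922), and Adam10 most like Tmem192 (0.869), Tspan14 and Mob1a (both 0.837). App had the weakest likeness at the top (Fbxl5 0.861, Nfe2l3 0.858 and Heatr3 0.857). Mapt was most like Gm11659 (0.932), the gene annotated on its opposite strand, then Fbxo21 (0.917) and Clasrp (0.910). Among the 9 themselves the highest values joined Prnp with Aplp1 (0.846) and with Aplp2 (0.788), and Mapt with Aplp2 gave -0.298.

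Over all nuclei, none of the 9 genes passed the edgeR test of KI against WT (0 of 9, against 0.889% of 21718 genes), and 1, Prnp, had an unadjusted p below 0.05, as did 5281 of all genes. DESeq2 also called 0 of the 9, and 1831 of all genes (8.43%). Sums over all nuclei cannot tell fewer cells of a class from less RNA per cell, and DG granule neurons gave 4305 and 3290 of the nuclei in WT and 2473 and 2218 in KI, astrocytes 554 and 598 in WT and 205 and 287 in KI. Prnp stood at 115 and 111 CPM (WT) against 88.7 and 95.0 CPM (KI) (log2 difference, KI minus WT, -0.25 ± 0.08, adjusted p = 0.157), and Ncstn at 18.4 and 19.6 CPM (WT) against 23.3 and 20.6 CPM (KI) (0.26 ± 0.13, adjusted p = 0.267). The CPM groups did not overlap for 7 of the 9 genes, and did not for 61.1% of all genes tested. No such share was taken within single classes, so a lack of overlap there only describes the values. Without KI replicate 2, Prnp (adjusted p = 0.0330) and Ncstn (0.0301) passed, as did 32.4% of all genes (7196 of 22243). In every such fit the genotype left with 1 library is assumed to vary as the other does. The median log2 difference of the 9 was -0.11, and that of all genes 0.01.

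Within classes, 102 of the 126 pairs of gene and class passed the low-count filter, and 1 of them passed the test: Prnp in CA1 pyramidal neurons. Its levels were 120 and 111 CPM (WT) against 72.1 and 87.2 CPM (KI). Both KI values lay below both WT values, and the log2 difference was -0.45 ± 0.11 (adjusted p = 0.0470), a fold of 0.733. That is 1 of the 9 genes, where 7.96% of the 16019 genes tested in CA1 passed (799 higher and 476 lower, or 613 higher and 620 lower with library totals). The call was not firm. Its adjusted p ranged from 1.42e-09 to 0.453 over 12 alternatives and was above the threshold in 5: doublets kept (0.0580), equal depth (0.0559), classes set per nucleus (0.0577), and without WT replicate 1 (0.453) or WT replicate 2 (0.214), while the log2 difference stayed between -0.54 and -0.37. Malat1 rose in CA1, from 9.44% and 9.65% of UMIs in WT to 15.1% and 13.1% in KI. The 8 astrocyte markers, none of them at 0, were lower there in KI, as Prnp was, with 135 and 146 CPM (WT) against 91.4 and 96.1 CPM (KI). Their part in the Prnp difference was not tested. Prnp, App and Adam10 were discussed by the study from these libraries, so their values here are not independent evidence.

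In astrocytes, where Prnp was highest, its difference had the other sign (0.38 ± 0.20, adjusted p = 0.507) and did not pass. In DG granule neurons it was -0.05 ± 0.09 (adjusted p = 0.776), with 112 and 110 CPM (WT) against 95.1 and 101 CPM (KI). Across the 12 classes in which Prnp was tested, the estimate was below 0 in 9.

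Mapt in oligodendrocytes had a KI minus WT log2 difference of -0.50 ± 0.15 (unadjusted p = 0.00896, adjusted p = 0.186). The KI values given above, 803 and 931 CPM, lay below the WT values of 1218 and 1329 CPM. It passed without the low-count filter (adjusted p = 0.0329), without KI replicate 1 (0.00634, where 6.16% of all genes passed) and without KI replicate 2 (2.58e-05, where 19.1% did), and in no other of the 12 alternatives. The 7 DG markers counted in oligodendrocytes summed to 2096 and 2231 CPM (WT) against 1963 and 1436 CPM (KI), and the 6 CA1 markers to 2202 and 2381 CPM (WT) against 2043 and 1395 CPM (KI), and their part in the Mapt difference was not tested. In the neuron classes the Mapt differences ran from -0.24 in Cajal-Retzius cells, with 285 and 282 CPM (WT) against 188 and 265 CPM (KI), to 0.11 in mossy cells, with adjusted p from 0.425 to 0.945. In DG the difference of -0.07 became -0.16 without KI replicate 1 and then passed (adjusted p = 0.0499).

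Aplp2 was lower in the KI estimate in CA1, CA3 and inhibitory neurons, and these made up 3 of the 6 pairs, of 102 tested, with an unadjusted p below 0.05. Of all genes, 4284 of 16019 had such a p in CA1, 3219 of 15260 in CA3 and 3001 of 15172 in inhibitory neurons. In CA3 it stood at 110 and 113 CPM (WT) against 68.8 and 90.4 CPM (KI) (-0.41 ± 0.13, adjusted p = 0.133). In inhibitory neurons it stood at 177 and 160 CPM (WT) against 121 and 130 CPM (KI) (-0.32 ± 0.11, adjusted p = 0.158). CA1 gave -0.38 ± 0.12 (adjusted p = 0.103). Without KI replicate 1 the adjusted p was 0.0113 in CA1, 0.0529 in CA3 and 0.0300 in inhibitory neurons, in fits that called 25.1%, 12.1% and 8.64% of all genes. Without KI replicate 2 it was 4.30e-08, 6.99e-07 and 0.00438, in fits that called 43.2%, 34.1% and 29.5%. In CA3 it also passed without the low-count filter (0.0330), where 7.37% of all genes did. In none of these classes did the genotypes overlap. Nor did they for 61.1% of all genes over all nuclei, and no such share was taken within classes. In oligodendrocytes the order was the other way, 273 and 286 CPM (WT) against 319 and 322 CPM (KI) (0.26 ± 0.15, adjusted p = 0.485).

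Ncstn gave a positive KI minus WT estimate in all 10 classes in which it was tested, from 0.10 to 0.93, and these classes come from the same 4 mice. In the 4 classes that the low-count filter removed, with at most 7 UMIs in a library, the mean level was lower in KI in 3: Cajal-Retzius cells (29.8 CPM in WT, 18.5 CPM in KI), fibroblasts (22.1 and 16.8 CPM) and mural cells (16.8 CPM, and 0 UMIs in KI). Among the tested classes the sign did not hold under every alternative either. In inhibitory neurons the estimate was just below 0 with library totals and was -0.03 without KI replicate 1, in CA3 it was -0.01 without KI replicate 1, and in microglia it was -0.03 without WT replicate 1. The best-counted was DG, with 21.1 and 23.0 CPM (WT) against 28.0 and 25.7 CPM (KI) (0.42 ± 0.14, adjusted p = 0.108), and it passed there only without KI replicate 2 (adjusted p = 0.00113), where 44.8% of all genes did (7792 of 17389). Psen2 was positive in 5 of 6 classes, from -0.06 to 0.39. Adam10 was below 0 in 9 of 12 classes, and oligodendrocytes had 150 and 140 CPM in WT against 112 and 113 CPM in KI (-0.31 ± 0.16, adjusted p = 0.428). App lay between -0.21 and 0.16 in all 14 classes. Aplp1 lay between -0.69 and 0.15 and was below 0 in 10 of 13 classes, with 0 calls. KI replicate 1 held the lowest Aplp1 level of the 4 libraries in CA1, with 126 and 108 CPM (WT) against 77.1 and 112 CPM (KI) (-0.23 ± 0.15, adjusted p = 0.383). Without KI replicate 2, Aplp1 passed as lower in CA1 (adjusted p = 1.71e-07), CA3 (0.0185), inhibitory neurons (0.0106) and oligodendrocytes (0.0181), and without KI replicate 1 as higher in DG (0.00388), where 23% of all genes passed. Bace1 lay between -0.12 and 0.85, the upper value being microglia with 13, 11, 22 and 10 UMIs in WT replicates 1 and 2 and KI replicates 1 and 2. Without KI replicate 1 it was 0.39 there.

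**Figure D3:**
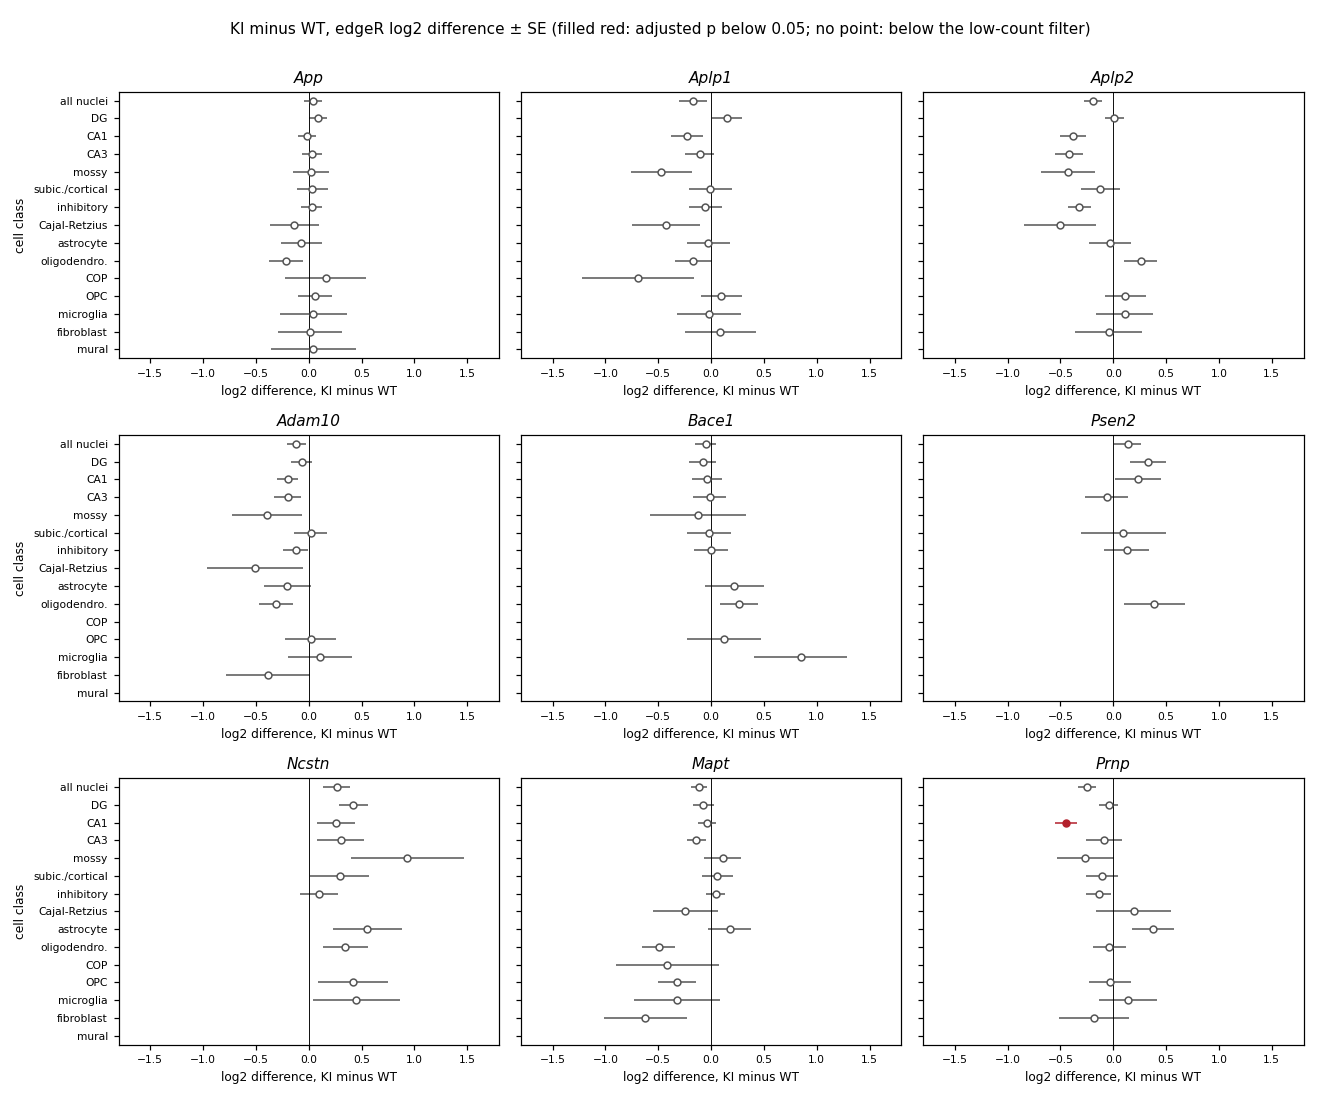
Log2 difference of KI minus WT (horizontal axis, edgeR, with TMM factors) ± SE for each of the 9 genes over all nuclei and in each class (vertical axis), with a filled red point where the adjusted p is below 0.05. Prnp in CA1 is the only such point, and Ncstn lies to the right of 0 in every class in which it was tested.

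In the other classes 0 of the tested members passed. The background there was 9.45% of genes in DG, 2.61% in CA3, 1.17% in inhibitory neurons, 1.54% in mossy cells, 0.033% in Cajal-Retzius cells, 1.37% in OPCs, 0.159% in astrocytes, 0.875% in oligodendrocytes and 0.0211% in fibroblasts. It was 0% in subicular or cortical excitatory neurons, committed oligodendrocyte precursors, microglia and mural cells. At an unadjusted p below 0.05 the counts there were 1641, 87, 445 and 30 genes. DESeq2 called 60 genes in the first of these and 0 in the others. The median log2 difference of the members was -0.04 in CA1, -0.09 in CA3 and 0.01 in DG, and that of all genes 0.00 in each. DG nuclei of the 2 genotypes lay mostly in different clusters: the first counted 4039 and 3076 from WT against 205 and 598 from KI, the second 266 and 214 from WT against 2268 and 1620 from KI. Most OPCs of KI replicate 1 (252 nuclei) also formed a subcluster of their own, with 10 and 8 WT nuclei and 14 of KI replicate 2.

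Whether the genotype difference itself was unequal between classes was tested with all class-by-genotype terms together. Aplp2 alone of the 9 passed (adjusted p = 0.0171), and 13.2% of all genes did. Prnp did not (adjusted p = 0.0819), although it passed with library totals (0.0367), with doublets kept (0.0250) and without KI replicate 2 (0.0239), and the other 7 had adjusted p between 0.257 and 0.995. Of these 7, Mapt passed without KI replicate 2 (0.00185). The Aplp2 estimates ran from -0.51 in Cajal-Retzius cells to 0.26 in oligodendrocytes. Its call was lost without KI replicate 1 (adjusted p = 0.318), WT replicate 1 (1.0) or WT replicate 2 (0.870), and with classes set per nucleus (0.423).

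Of the 46 other genes of the pathway, 7 differed between KI and WT in at least 1 class, in 17 of 476 pairs of gene and class tested (3.57%), 9 higher and 8 lower in KI. Over all genes and the same 14 classes, 3755 of 132433 pairs did (2.84%). Sorcs1, a sorting receptor that binds the amyloid precursor protein, rose in 6 classes and over all nuclei. In DG granule neurons it went from 23.98 and 24.74 CPM (WT) to 318 and 239 CPM (KI), a log2 difference of 3.66 ± 0.18 (adjusted p = 0.00126). In CA1 it went from 61.2 and 56.7 CPM to 213 and 141 CPM (1.69 ± 0.22, adjusted p = 0.00813). Over all nuclei it was 153 and 126 CPM (WT) against 339 and 355 CPM (KI) (1.36 ± 0.11, adjusted p = 0.0368). In every one of these sums both KI values lay above both WT values. The others were CA3 (1.13 ± 0.20, adjusted p = 0.0319), mossy cells (2.23 ± 0.27, adjusted p = 1.86e-07), inhibitory neurons (0.82 ± 0.13, adjusted p = 0.0308) and astrocytes (1.71 ± 0.27, adjusted p = 0.0384). OPCs, where the WT level was high at 711 and 787 CPM, had 625 and 674 CPM in KI (-0.11 ± 0.14, adjusted p = 0.819). The calls over all nuclei, in DG and in CA1 held under every alternative run. The CA3 call was lost without WT replicate 1 (adjusted p = 0.0643) or WT replicate 2 (0.275), and that in inhibitory neurons without WT replicate 1 (0.0587) or WT replicate 2 (0.182) and with classes set per nucleus (0.0660). In mossy cells it was lost with DESeq2 (0.0813), without KI replicate 1 (0.178) and with classes set per nucleus (0.142). In astrocytes it was lost with library totals (0.0655), with nuclei of at least 1000 genes (0.0838), with doublets kept (0.106) and without WT replicate 2 (0.998), and DESeq2 gave no adjusted p there. The 10 inhibitory neuron markers counted in astrocytes, none at 0, summed to 840 and 826 CPM (WT) against 1347 and 1027 CPM (KI), and their part in the astrocyte difference was not tested. In DG, Malat1 took 8.38% and 8.41% of UMIs in WT and 16.9% and 14.1% in KI, and its part in the DG differences was not tested.

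Map6, which binds and stabilises microtubules as tau does, fell in 5 neuron classes. In CA3 it went from 68.4 and 70.2 CPM (WT) to 21.9 and 31.2 CPM (KI) (-1.32 ± 0.17, adjusted p = 0.0150). In DG it went from 88.9 and 88.0 CPM to 34.4 and 45.7 CPM (-1.01 ± 0.14, adjusted p = 0.0104). The other 3 were CA1 (-0.81 ± 0.18, adjusted p = 0.0414), inhibitory neurons (-0.84 ± 0.14, adjusted p = 0.0308) and mossy cells (-1.44 ± 0.31, adjusted p = 0.00492). It was 1 of 5 genes in its list of microtubule-associated proteins, and Map1a, Map1b, Map2 and Map4 did not pass in any class. The Map6 call was lost without WT replicate 1 or WT replicate 2, respectively, in DG (adjusted p = 0.108 and 0.104) and in inhibitory neurons (0.177 and 0.193), and in mossy cells with DESeq2 (0.268), without WT replicate 2 (0.321) or KI replicate 1 (0.398) and with classes set per nucleus (0.121). The CA1 call was lost with doublets kept (0.0559) and the CA3 call with classes set per nucleus (0.0918).

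Apbb2, an adaptor that binds the intracellular tail of the precursor protein, rose in CA1, from 133 and 132 CPM to 230 and 233 CPM (0.89 ± 0.09, adjusted p = 0.00345), and, in oligodendrocytes of the same mice, from 403 and 386 CPM to 1080 and 716 CPM (1.26 ± 0.22, adjusted p = 0.0350). Bace2, the homolog of Bace1, rose in CA1 from 1.66 and 1.02 CPM to 4.83 and 5.14 CPM (1.96 ± 0.33, adjusted p = 0.0177). Stip1, a co-chaperone that binds the prion protein at the cell surface, fell in CA1 from 31.1 and 26.9 CPM to 13.6 and 16.7 CPM (-0.86 ± 0.15, adjusted p = 0.0215). In DG the tau kinase Mark1 fell from 98.8 and 99.9 CPM to 60.1 and 65.0 CPM (-0.53 ± 0.10, adjusted p = 0.0241), and the sorting receptor Sorl1 from 216 and 216 CPM to 131 and 121 CPM (-0.64 ± 0.10, adjusted p = 0.0166). In each of these comparisons the genotypes did not overlap, though the share of all genes for which this held was not taken within classes. The calls of Mark1 (adjusted p = 0.332 and 0.345) and Sorl1 (0.222 and 0.220) were lost without WT replicate 1 or WT replicate 2, that of Stip1 without WT replicate 1 (0.133) and that of Bace2 without WT replicate 2 (0.0506), whereas that of Apbb2 held in CA1 under every alternative run and in oligodendrocytes under all but classes set per nucleus (0.340). The list of gamma-secretase partners had 0 of its 5 genes pass in any class.

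**Figure D4:**
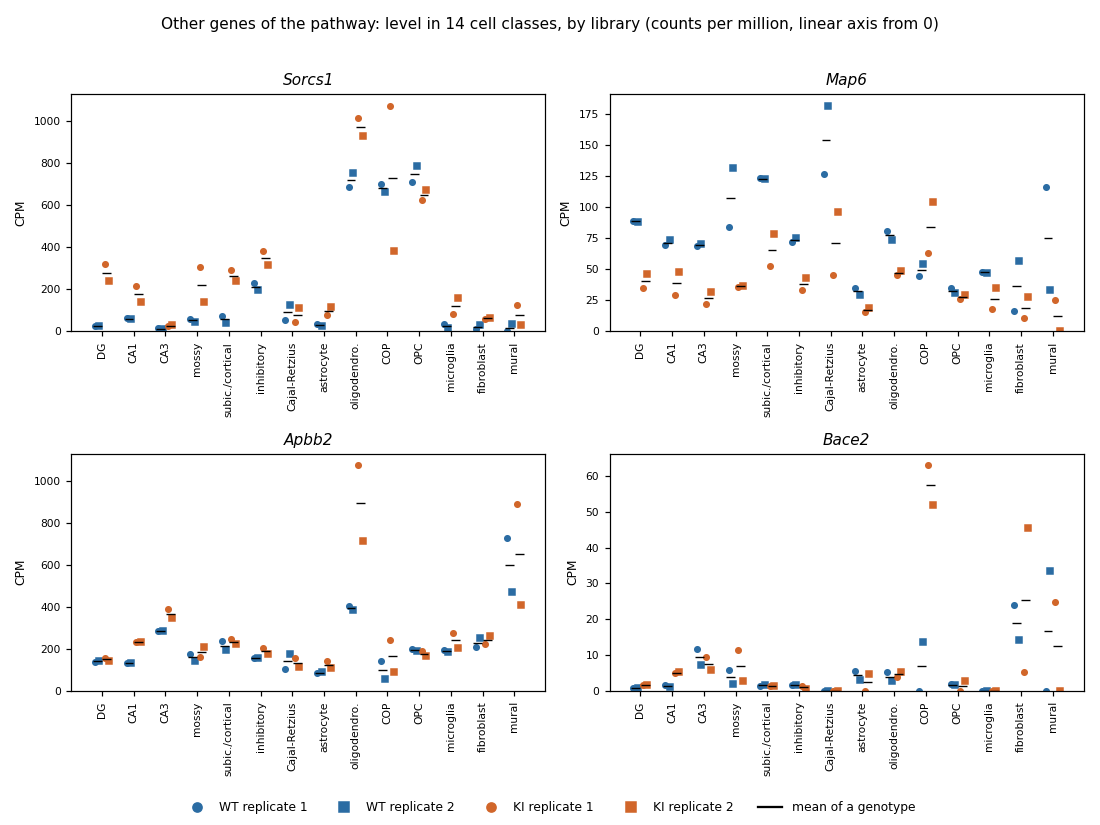
Level (vertical axis, CPM, linear from 0) of Sorcs1, Map6, Apbb2 and Bace2 in the 14 cell classes (horizontal axis), with 1 point per library (WT blue, KI orange) and a bar at the mean of each genotype. Sorcs1 lies near 24 CPM in both WT libraries and above 230 CPM in both KI libraries in DG, and Map6 lies lower in KI than in WT in every neuron class shown.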

How the data were processed

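The deposited files are counts: the authors aligned 10x Genomics Chromium 3' reads of nuclei to mm10 with Cell Ranger and deposited raw UMI counts per gene and barcode. Whether introns or the strand entered the counting is not given in the sources used here. Barcodes with under 500 genes or at least 5% mitochondrial UMIs were removed (345), as were 3262 doublets (Scrublet). Nuclei were clustered (scanpy 1.11.5, Leiden resolution 0.5) and classes were rebuilt from markers, with resolution and limits set after the clusters were seen. Counts were summed per library and class, and tested with edgeR 4.0.16 (quasi-likelihood, TMM factors, low-count filter, Benjamini-Hochberg adjustment over all genes, threshold 0.05), in classes with at least 20 nuclei in every library. Class comparisons had the library as a block. The replicate was the mouse. With 2 against 2 an exact permutation test cannot go below p = 0.333. Alternatives were DESeq2 1.42.0, library totals, no low-count filter, at least 1000 genes per nucleus, doublets kept, thinning to equal depth, a replicate block, each library left out, and classes set by each nucleus's own marker UMIs. The classes set per nucleus matched the class by cluster for only 52.4% of named nuclei, so they are a rough alternative. Scripts were tested on simulated data. Of simulated 2-fold changes between genotypes, 45% were recovered over all nuclei, 58% in DG and 48% in astrocytes. For 4-fold changes it was 90%, 93% and 86%. Of the simulated calls, 17 of 152, 8 of 159 and 6 of 140 were false. A gene that did not pass may thus still differ between KI and WT. Pathway genes past the threshold (at most 10 per comparison) and the 3 genes most alike in pattern, among those with a mean of at least 10 CPM, were named. The members and lists were chosen with earlier results of these data known. A result for a gene of the lists is not reported here.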

Additional observations from a re-analysis of the deposited data

Results flagged for a closer look

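For the genes named here the KI minus WT difference was unequal between cell classes in the test of all class-by-genotype terms (edgeR). Aplp2 had an adjusted p of 0.01709. Among the other genes of the pathway 13.3% of the 45 tested passed, against 13.2% of all genes, so the share is near the background. The adjusted p was 8.303e-15 for Sorcs1, 5.191e-05 for Apbb2, 0.02361 for Bace2 and 0.04035 for Sorl1. Lrp1 (0.004671) passed as well and is named after its value was seen, since it did not pass in KI against WT in any single class.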

How the results depend on the processing

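The count of members called over all nuclei was 0 and lay between 0 and 2 when each library was left out. Within classes it was 1, and 3 without the low-count filter, 0 with doublets kept, 0 at equal depth, 0 with classes set per nucleus, and between 0 and 15 when each library was left out. The 38 calls of members between classes lay between 34 and 40 when each library was left out. The count of members with unequal genotype differences was 1, and 2 with library totals, 2 with doublets kept, 0 with classes set per nucleus and between 0 and 3 with a library left out. The 17 pathway calls became 36 without the filter and between 9 and 101 with a library left out. The share of all genes called moved as well: over the 14 classes together it was 2.84% of pairs of gene and class, and 3.40% without the filter, 2.65% with doublets kept, 2.97% at equal depth, 1.84% with classes set per nucleus, 6.44% with the replicate block and between 0.849% (without WT replicate 1) and 21.2% (without KI replicate 2) with a library left out. Over all genes, 193 calls over all nuclei became 1831 with DESeq2, 708 without the filter and between 115 and 7196 with a library left out, the 1275 calls in CA1 between 677 and 7259, and the 1735 class-by-genotype calls 717 with classes set per nucleus and between 431 and 3101. App in excitatory neurons against macroglia turned to -0.22 with library totals, and Mapt in microglia to 0.23 with classes set per nucleus. The causes were not tested.

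Libraries share only a replicate number (correlation of deviations 0.059). With the replicate block 1955 genes were called over all nuclei, 2007 in CA1 and 30 pathway pairs, and 1 member within classes. The endothelial comparison was not run, since a library held 14 nuclei. With 2 mice per genotype, the p-values rest on a spread estimated from these 4 libraries, with information shared between genes. They do not themselves measure how mice differ.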
